A study of Mus musculus with 6 samples.

Results

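The genes of oxidative phosphorylation that are carried in the nucleus were examined in B cells from the spleens of NZB/W F1 animals, which are a cross of 2 strains and acquire lupus-like disease. They were taken by name: every row of the deposited table whose symbol starts as a subunit of complex I (Ndufa, Ndufb, Ndufc, Ndufs or Ndufv with a number), complex II (Sdha to Sdhd), complex III (Uqcr), complex IV (Cox4 to Cox8) or complex V (Atp5). This gave 86 of 41669 rows, of which 36 were placed with complex I, 4 with II, 8 with III, 18 with IV and 20 with V. The placement follows the symbol alone and was not checked against the make-up of the complexes, for Ndufa4 as for the rest. Members with other symbols, such as Cyc1 and Ndufab1, are missed. Of the 20 rows named for complex V, 3 are processed pseudogenes (Atp5l-ps1, Atp5l-ps2 and Atp5l2-ps), and Atp5s and Atp5sl are listed by RefSeq as Dmac2l and Dmac2, so both are placed with complex V by name only. The 6 libraries came from 3 female and 3 male mice with late-stage disease. The cells of both sexes had been purified on a positive-selection column and then kept for 24 h with CpG, which Toll-like receptor 9 recognises. The sources used here give neither the ages of the mice nor the marker used for selection. Library totals ran from 24089561 to 35659883 estimated counts, and a floor of 3 counts corresponded to 0.0841 to 0.125 CPM.

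Oxidative phosphorylation is the set of reactions on the inner mitochondrial membrane that makes most of the ATP of a resting or dividing cell. Complex I takes electrons from NADH and complex II from succinate, complex III passes them to cytochrome c, and complex IV hands them to oxygen. Complexes I, III and IV pump protons, and complex V, the ATP synthase, lets the protons flow back and makes ATP. Activated B cells raise this respiration together with glycolysis, and plasma cells depend on it to secrete antibody. Most subunits are encoded in the nucleus and a few core ones in the mitochondrial genome, and the subunits of a complex are assembled in fixed proportions.

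Within each complex the subunits had very unequal measured levels, and in all but complex II these were lower at higher GC content. In complex I the core subunits Ndufs1 and Ndufv2 averaged 169.8 and 143 CPM over the 6 libraries, while Ndufv1 and Ndufs7, core subunits of the same electron path, averaged 2.27 and 0.813 CPM. The GC content of their transcripts was 46.6, 42.0, 56.7 and 60.7%. The pairs Uqcrb and Uqcrq of complex III (200 and 6.72 CPM) and Cox7b and Cox8a of complex IV (197 and 13.99 CPM) showed the same contrast, with GC contents of 42.2 and 57.8% and of 42.0 and 58.5%. To let the reader see this difference, 90 coding bases of each gene are shown, from the start of its longest coding exon, on the GRCm38 build, on the coding strand from 5′ to 3′, with G and C in capitals. The complex I genes are the core subunits with the lowest and highest GC content, so they are extremes and not typical genes. No pair is shown for complexes II and V, where level and GC content were less closely related. Of these pairs Uqcrq was chosen after the values were seen.
Ndufs1 (chr1:63163763-63163852, minus strand): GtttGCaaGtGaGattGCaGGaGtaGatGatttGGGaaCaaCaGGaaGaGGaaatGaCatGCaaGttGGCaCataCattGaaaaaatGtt
Ndufv2 (chr17:66087482-66087571, minus strand): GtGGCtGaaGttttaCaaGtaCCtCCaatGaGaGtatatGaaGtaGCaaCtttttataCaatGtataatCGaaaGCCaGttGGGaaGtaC
Ndufv1 (chr19:4008717-4008806, minus strand): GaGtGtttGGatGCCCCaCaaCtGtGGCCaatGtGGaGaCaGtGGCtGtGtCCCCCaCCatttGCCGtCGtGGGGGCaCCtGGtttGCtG
Ndufs7 (chr10:80254840-80254929, plus strand): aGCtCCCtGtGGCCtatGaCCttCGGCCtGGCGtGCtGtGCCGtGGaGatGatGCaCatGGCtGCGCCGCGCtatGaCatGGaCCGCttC
Uqcrb (chr13:66901479-66901568, minus strand): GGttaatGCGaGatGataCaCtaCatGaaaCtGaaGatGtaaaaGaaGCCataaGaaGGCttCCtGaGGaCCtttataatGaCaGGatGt
Uqcrq (chr11:53430600-53430689, minus strand): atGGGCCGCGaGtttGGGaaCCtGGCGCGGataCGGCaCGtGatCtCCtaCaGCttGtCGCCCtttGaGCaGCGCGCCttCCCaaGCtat
Cox7b (chrX:106019579-106019668, plus strand): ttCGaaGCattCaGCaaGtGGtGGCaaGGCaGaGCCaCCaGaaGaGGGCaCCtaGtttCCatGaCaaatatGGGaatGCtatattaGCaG
Cox8a (chr19:7217423-7217512, minus strand): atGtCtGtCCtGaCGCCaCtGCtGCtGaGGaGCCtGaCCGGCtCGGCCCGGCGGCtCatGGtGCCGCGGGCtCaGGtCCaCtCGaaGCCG
G and C made up 38.9, 36.7, 60.0 and 63.3% of the complex I stretches in this order, 38.9 and 61.1% of those of complex III, and 47.8 and 70.0% of those of complex IV.

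Before the values by gene, 2 features of the libraries bear on all of them. Of 86 genes, 72 passed the low-count filter of the comparison between the sexes, which 12172 genes of the table passed. Female replicate 3 lay far from the rest: its score on the first principal component (50.8% of the variance) was 94.2, against -47.9 for female replicate 1 and -27.8 to 6.66 for the others. It had the lowest CPM of the 6 libraries for 62 of the 72 genes (86.1%), against 51.4% of all tested genes. Female replicate 1 had the highest for 39 of 72 (54.2%, against 29.2%) and male replicate 1 for 27 (37.5%, against 13.7%). Values below are CPM, the estimated count scaled to the library total, unless another scale is named. The scaling factors of the fit differ from the totals, by 0.816 for female replicate 3 and by 0.993 to 1.07 for the others. With totals only, the median log2 fold change of all tested genes was -0.12, against 0.00 with these factors.

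Complex I, the NADH dehydrogenase, took between 740 and 1132 CPM in all in a library. Its genes were compared with each other per kilobase of the longest annotated transcript, since a longer transcript gives more reads. Over the 33 tested genes the mean level ran from 0.234 CPM per kb for Ndufb7 to 164 for Ndufb6, both accessory subunits, a span of 702-fold. With the length of the transcript that holds the longest coding sequence the span was 153-fold, from Ndufs7 to Ndufb6, so its size depends on the transcript chosen. Of these 33 genes, 3 averaged over 100 CPM (Ndufs1, Ndufv2 and Ndufb6) and 15 were under 10 CPM.

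**Figure D1:**
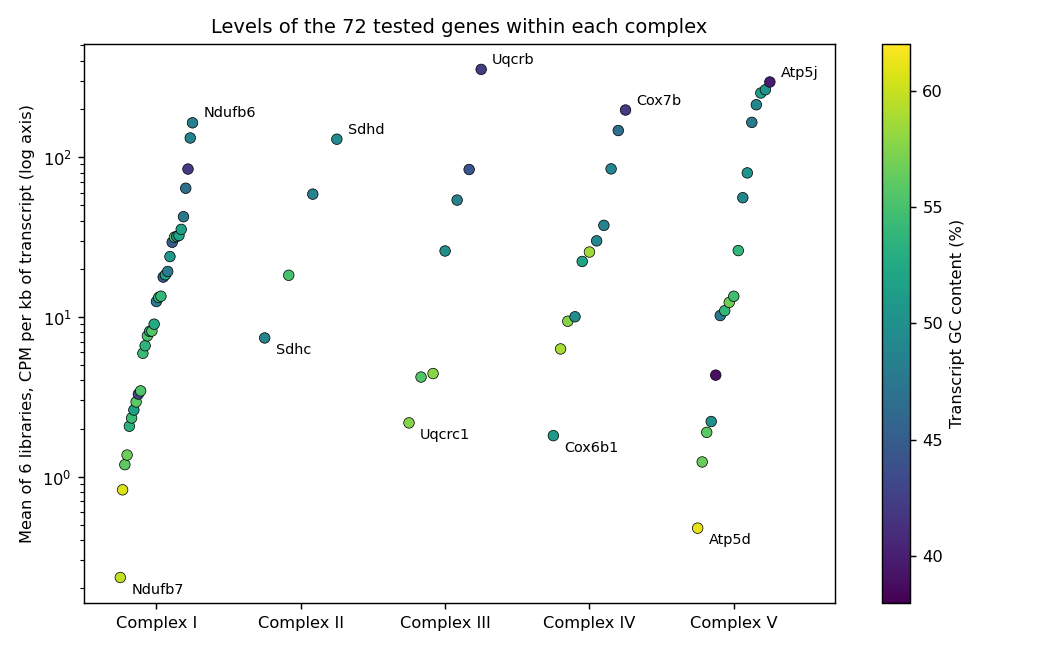
Mean level over 6 libraries of each of the 72 tested genes, in CPM per kilobase of the longest transcript on a log axis, ordered within its complex, with each point coloured by the GC content of its transcript. In complexes I and V the lowest genes, Ndufb7 and Atp5d, lie near the top of the GC scale, and levels within a complex span from 17.5-fold (complex II) to 702-fold (complex I).

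The flavoprotein and iron-sulphur core of complex I carries electrons from NADH to ubiquinone. On the CPM scale it held the genes of the complex with the highest and the lowest value, Ndufs1 and Ndufs8. Per kilobase Ndufs1 stood at 63.8 CPM per kb, below the accessory subunit Ndufb6 at 164. Ndufs1, the largest core subunit, had 191, 146 and 171 CPM in female replicates 1 to 3 and 181, 165 and 163 in the males. These values overlapped between the sexes, and female replicate 3 lay within the range of the others. Ndufv2 had 157, 140 and 127 CPM in females and 174, 107 and 153 in males. Ndufs3 had 17.2, 13.4 and 5.26 CPM in females and 16.7, 16.2 and 15.8 in males. Unlike Ndufs1, it was lowest in female replicate 3, at 0.332 of the mean of the other 5 libraries. Ndufv1, which binds NADH and the flavin, had 4.02, 1.74 and 0.321 CPM in females and 3.11, 2.22 and 2.19 in males, a wider spread in females than in males. Ndufs7, which holds the last iron-sulphur cluster before ubiquinone, had 0.663, 0.814 and 0.590 CPM in females and 1.01, 0.871 and 0.923 in males, all females below all males. Ndufs8, another iron-sulphur subunit, had a total of 0.00113 estimated counts over the 6 libraries, and 3 counts would have been 0.0841 to 0.125 CPM. Why so few counts were assigned to Ndufs8 was not tested, so its value does not show that the gene is silent. Ndufa11 and Ndufa13, accessory subunits that also missed the filter and are named after their values were seen, had 0 to 0.132 and 0.0678 to 0.578 CPM.

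No complex I gene passed the test between the sexes. Ndufc2, an accessory subunit of the membrane arm, was among the genes of the complex with the smallest p (log2 fold change, female over male, 0.32 ± 0.23 SE, unadjusted p = 0.204, edgeR adjusted p = 0.999). Ndufc2 had 84.2, 105 and 95.9 CPM in females and 99.9, 61.8 and 92.4 in males, and male replicate 2 was the lowest of the 6. Ndufc1, its neighbour in the membrane arm, had 40.3, 39.9 and 36.9 CPM in females and 54.6, 47.8 and 44.8 in males, without overlap (-0.19 ± 0.16, adjusted p = 0.999). Of the 33 tested genes 28 had a log2 fold change below 0, and the median was -0.21. Without female replicate 3 there were 17 negative and the median was -0.00.

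The 3 X-linked genes are Ndufa1 and Ndufb11 of complex I and Cox7b of complex IV, and they are given together because the study's title concerns the inactive X chromosome. Ndufa1 and Ndufb11 are named after their values were seen. Ndufa1, a small subunit of the membrane arm (GRCm38, chromosome X, 37187588 to 37191163, GENCODE M21), had 21.0, 16.4 and 11.2 CPM in females and 22.0, 16.7 and 19.1 in males. Ndufb11 had 13.3, 6.44 and 1.58 CPM in females and 10.9, 8.05 and 8.82 in males. Both overlapped between the sexes, and no female library was above the highest male for Ndufa1. Cox7b, a small subunit of complex IV, had 196, 194 and 147 CPM in females and 233, 197 and 216 in males, all females below all males. Their log2 fold changes were -0.14 ± 0.22, -0.35 ± 0.58 and -0.14 ± 0.13, each with an edgeR adjusted p of 0.999.

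Complex II, succinate dehydrogenase, is the only complex whose subunits all come from nuclear genes, and it also works in the citric acid cycle. Its 4 genes had levels between 7.37 CPM per kb for Sdhc and 129 for Sdhd, whose transcripts have nearly the same GC content (48.7 and 49.4%). With the median transcript length the lowest was Sdhb and the highest Sdha. Sdha, the flavoprotein that oxidises succinate, had 169, 167 and 163 CPM in females and 188, 169 and 164 in males. Sdhd, a membrane anchor, had 168, 158 and 148 CPM in females and 171, 160 and 151 in males. In both genes the sexes overlapped, and male replicate 1 was the highest library. Sdhb, the iron-sulphur subunit, had 31.1, 18.2 and 11.8 CPM in females and 28.6, 19.6 and 25.2 in males. Sdhc, the other anchor, had 28.7, 20.4 and 6.82 CPM in females and 34.1, 25.3 and 24.9 in males. Sdhc stood at 0.256 of the other libraries' mean in female replicate 3 and its partner Sdhd at 0.916. The log2 fold changes were -0.53 ± 0.40 for Sdhc (unadjusted p = 0.221) and 0.11 ± 0.13 for Sdhd (unadjusted p = 0.418), the 2 smallest p of the complex.

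Complex III, the cytochrome bc1 complex, had 1 gene under the filter, Uqcr11 (0.0298 to 0.218 CPM, named after its values were seen). Uqcrb, a small subunit at the ubiquinone site, was the highest gene of the complex per kilobase, at 354 CPM per kb. It was also the highest of the whole set on the longest transcript, but not with the transcript of the longest coding sequence (Atp5j) or the median length (Atp5b). It had 195, 197 and 196 CPM in females and 231, 178 and 203 in males. Uqcrfs1, the Rieske iron-sulphur protein, had 75.6, 72.9 and 74.4 CPM in females and 76.8, 64.1 and 76.1 in males, and the 3 female values lay within the male range. The core proteins form a pair in the complex but not in level. Uqcrc2 had 186, 177 and 115 CPM in females and 184, 112 and 177 in males, and Uqcrc1 had 10.003, 3.72 and 0.789 CPM in females and 6.49, 5.61 and 5.57 in males. Per kilobase of the longest transcript Uqcrc1 was the lowest tested gene of the complex, at 2.17 CPM per kb, and with the median length Uqcr10 was. The 2 smallest p belonged to Uqcrfs1 (log2 fold change 0.19 ± 0.16, unadjusted p = 0.286) and Uqcrc2 (0.13 ± 0.22, unadjusted p = 0.570).

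Complex IV, cytochrome c oxidase, has several subunits with a tissue-restricted form beside the common one, and in these B cells the restricted forms were at or near 0. Cox4i2, Cox8b and Cox8c had 0 counts in all 6 libraries, which allows a level of up to 0.0841 to 0.125 CPM in each. Cox6a2 and Cox6b2 had 0.0413 CPM each in female replicate 1 and 0 elsewhere, Cox7a1 had 0.0600 CPM in male replicate 3 only, and Cox7b2 had 0.102 CPM in female replicate 2 only, all at or under 3 counts. The common forms were all measured. Cox4i1, the regulatory subunit that binds ATP, had 12.4, 6.34 and 2.54 CPM in females and 7.70, 7.38 and 6.67 in males. Cox6a1 had 7.31, 3.15 and 0.480 CPM in females and 4.79, 3.66 and 4.02 in males. Cox8a had 23.2, 11.8 and 1.95 CPM in females and 19.3, 12.4 and 15.3 in males. In each of these the highest and the lowest library were both female, and the males lay between them. Cox7a2 had 22.6, 14.1 and 7.07 CPM in females and 18.02, 11.8 and 14.3 in males. Its relative Cox7a2l, which joins complexes III and IV into supercomplexes, had 17.4, 8.23 and 2.67 CPM in females and 16.0, 10.5 and 13.0 in males.

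Cox5a and Cox5b, subunits that sit against the catalytic core, had unequal levels. Cox5a had 185, 142 and 79.6 CPM in females and 187, 172 and 155 in males, and Cox5b had 32.4, 27.6 and 21.1 CPM in females and 27.6, 20.9 and 25.6 in males. Cox6c had 116, 109 and 81.1 CPM in females and 136, 121 and 119 in males, all females below all males. Cox6b1, which lies at the face where the dimer joins, was the lowest tested gene of the complex at 1.80 CPM per kb, and had 2.54, 0.569 and 0.521 CPM in females and 1.11, 1.12 and 0.839 in males. The 2 smallest p belonged to Cox5b (log2 fold change 0.25 ± 0.18, unadjusted p = 0.213) and Cox6c (-0.18 ± 0.13, unadjusted p = 0.215), with an edgeR adjusted p of 0.999 for both.

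Complex V took the largest share, 1549 to 2584 CPM in a library, and 6 of its genes averaged over 100 CPM. Atp5b, the catalytic beta subunit, had 636, 460 and 233 CPM in females and 575, 459 and 530 in males. Its partner in the catalytic head, Atp5a1, had 234, 212 and 141 CPM in females and 255, 210 and 225 in males. Atp5j, coupling factor 6 of the stalk, had 270, 274 and 216 CPM in females and 310, 290 and 281 in males, all females below all males. Atp5d, the delta subunit of the rotor, had 1.83, 0.574 and 0.0897 CPM in females and 0.537, 0.538 and 0.451 in males, and was the lowest tested gene of the complex at 0.476 CPM per kb. Its 620-fold distance from Atp5j was the span of the complex. Atp5e, the epsilon subunit of the same rotor, had 39.2, 18.4 and 1.89 CPM in females and 32.8, 22.0 and 22.7 in males.

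The membrane ring of complex V is built from a small proteolipid that 3 genes encode with different import sequences. Atp5g3 had 279, 221 and 138 CPM in females and 278, 224 and 224 in males. Atp5g2 had 7.45, 11.7 and 4.58 CPM in females and 12.2, 7.68 and 12.1 in males, and Atp5g1 had 12.5, 2.14 and 0.943 CPM in females and 8.47, 5.45 and 5.40 in males. Per kilobase Atp5g3 stood at 264 CPM per kb, against 12.3 for Atp5g2 and 1.24 for Atp5g1. The distance between Atp5g2 and Atp5g1 depends on the transcript: with the one of the longest coding sequence they stood at 21.0 and 9.77 CPM per kb, and in female replicate 1 Atp5g1 had the higher CPM. Some of their reads cannot be assigned with certainty. Of the coding 31-base words of Atp5g1, 93.7% also occur in the pseudogene Gm10039 (mean 1.04 CPM). Of those of Atp5g2, 100% occur in Gm10175 (mean 1.94 CPM) and Gm10231 (0 CPM). In female replicate 1 Gm10175 had 9.38 CPM, more than Atp5g2 itself, and Gm10039 had 2.36 CPM. Gm10175 had 1.63 CPM or less in every other library. Whether the order of Atp5g1 and Atp5g2 in female replicate 1 rests on read assignment was not tested. In all, 15 of the 86 genes shared at least 50% of these words with another gene, and for Ndufs5 the copy, BC002163, held more counts than the gene (1.61 against 1.41 CPM).

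Atp5s had the smallest p of the set and the largest change. It had 8.24, 11.6 and 7.32 CPM in females and 5.35, 7.04 and 1.82 in males, all females above all males by a narrow margin. The log2 fold change was 1.07 ± 0.48 (unadjusted p = 0.0565, edgeR adjusted p = 0.999), and 1.11 without female replicate 3. Atp5h, a stalk subunit, came next in complex V with 63.9, 42.5 and 15.6 CPM in females and 58.1, 52.5 and 53.8 in males (-0.36 ± 0.36, unadjusted p = 0.346).

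Across all 5 complexes no gene passed an FDR of 0.05 in edgeR, where 0.0575% of the 12172 tested genes were called. At an unadjusted p under 0.05 the count was 0 of 72, against 2.89% of all tested genes. DESeq2 and limma-voom also called 0 of 72, with 1 gene each at an unadjusted p under 0.05, given here without the share over all tested genes. In 5 of 72 genes (6.94%) all females lay below all males on the CPM scale (Ndufs7, Ndufc1, Cox6c, Cox7b and Atp5j), against 7.55% of all tested genes, and in 1 (Atp5s, 1.39%) they lay above, against 2.69%. Counts this small are not read as a difference from the genes at large. The standard errors of the 72 log2 fold changes ran from 0.13 to 0.83 with a median of 0.35.

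Signs leaned to lower values in females, but the lean rested on female replicate 3. Of 72 genes 53 (73.6%) had a log2 fold change below 0, against 49.9% of all tested genes, with a median of -0.16 against 0.00. Without female replicate 3 there were 32 negative and the median was 0.03. Without female replicate 1, the library at the other end, there were 58 negative and the median was -0.50. In that edgeR fit 5 genes had an unadjusted p under 0.05, but none was called. The same values over all tested genes are not given for fits with a library left out. These counts and medians therefore cannot be read as particular to the 72 genes. The medians of complexes I to V were -0.21, -0.05, -0.26, -0.14 and -0.15 with all libraries and -0.00, -0.01, 0.14, 0.16 and 0.06 without female replicate 3.

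**Figure D2:**
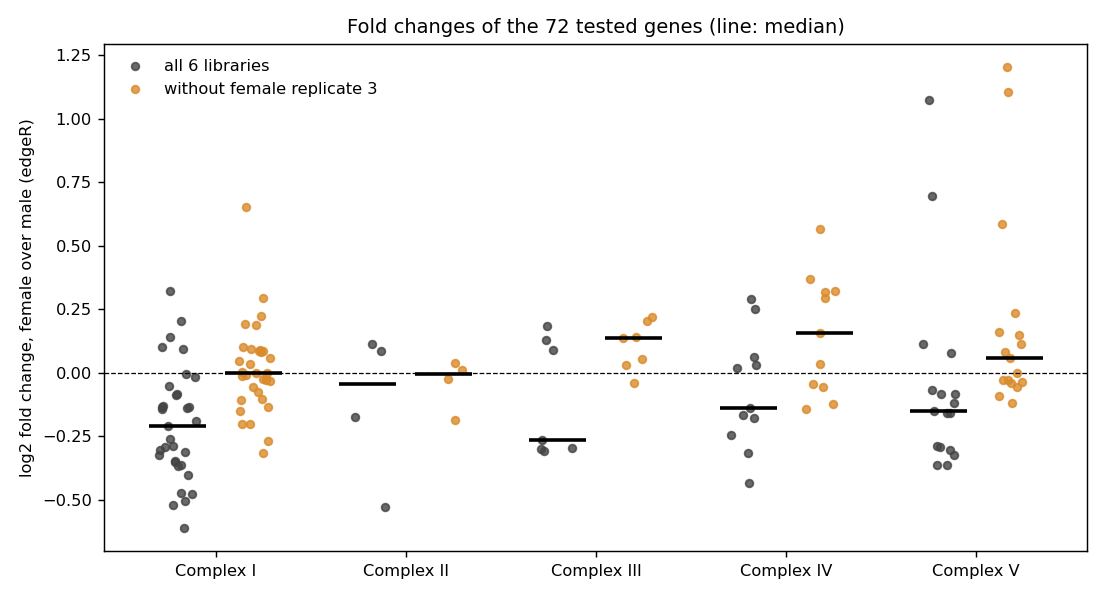
The log2 fold change, female over male, of each of the 72 tested genes by complex, fitted with edgeR on all 6 libraries (grey) and without female replicate 3 (orange), with black lines at the medians. The medians of complexes III, IV and V lie below 0 with all libraries and above 0 without that library.

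Summed over all genes of a complex, the sexes overlapped. Complex I summed to 923 ± 178 CPM in females and 1019 ± 108 in males (mean ± SD, n = 3 each). Complex II summed to 363 ± 33.9 and 387 ± 30.8 CPM, complex III to 460 ± 63.0 and 473 ± 73.7, complex IV to 592 ± 147 and 700.3 ± 65.6, and complex V to 2080.5 ± 503 and 2352 ± 206. All 86 genes together took 0.527, 0.455 and 0.344% of counts in female replicates 1 to 3 and 0.545, 0.452 and 0.483% in male replicates 1 to 3. With the scaling factors of the fit the log2 ratio of female to male sums turned positive for complexes II (0.046) and III (0.090), so no direction is given for them. The ratio of the female to the male mean was 0.896 for the whole set, and 0.996 without female replicate 3. Male replicate 1 and female replicate 1 had the 2 highest sums in every complex, so the spread within a sex was as wide as the distance between the sexes. Fewer cells of a type and less RNA per cell cannot be told apart in such bulk libraries.

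**Figure D3:**
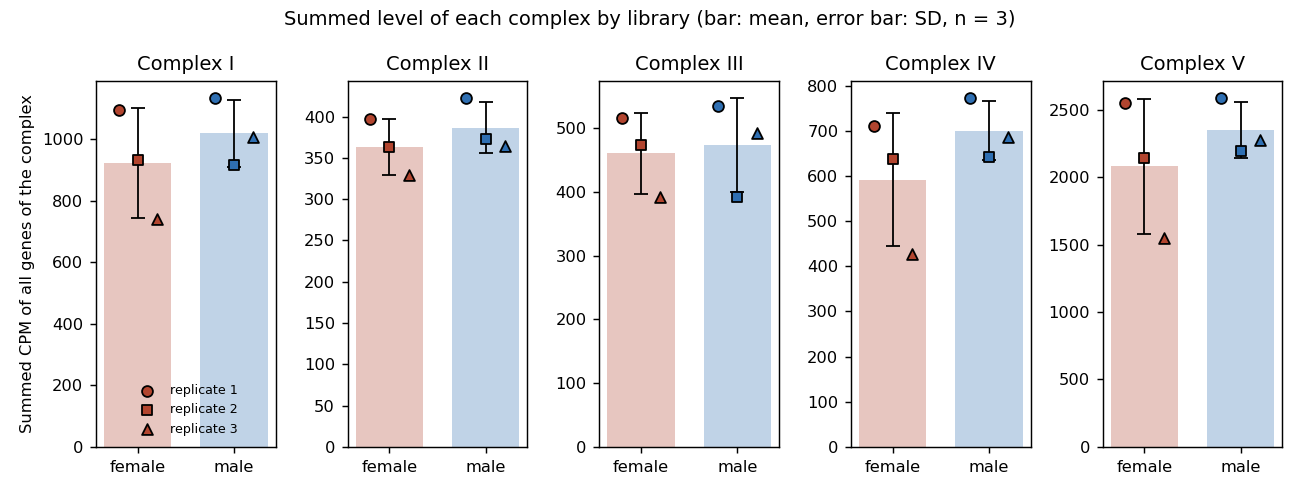
CPM summed over all genes of each complex in each library (points, shape by replicate number), with the mean (bar) and SD (error bar) over 3 mice per sex, on axes that start at 0. Female replicate 3 is the lowest library in every complex except III, where male replicate 2 has 391.6 CPM against its 392 CPM.

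The distance of female replicate 3 from the others was not shared evenly among the genes. Its CPM was a median of 0.438 of the mean of the other 5 libraries over the 72 genes, against 0.745 over all tested genes, and it was under 0.5 for 44 of 72 genes (61.1%, against 28.9%). Atp5e was the most reduced, at 0.0700 of that mean, followed by Atp5j2, a subunit of the membrane part, at 0.0861. At the other end Ndufc2 stood at 1.08 and Atp5s at 1.07. By complex the median was 0.381 in complex I, 0.699 in complex II, 0.284 in complex III, 0.438 in complex IV and 0.438 in complex V.

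**Figure D4:**
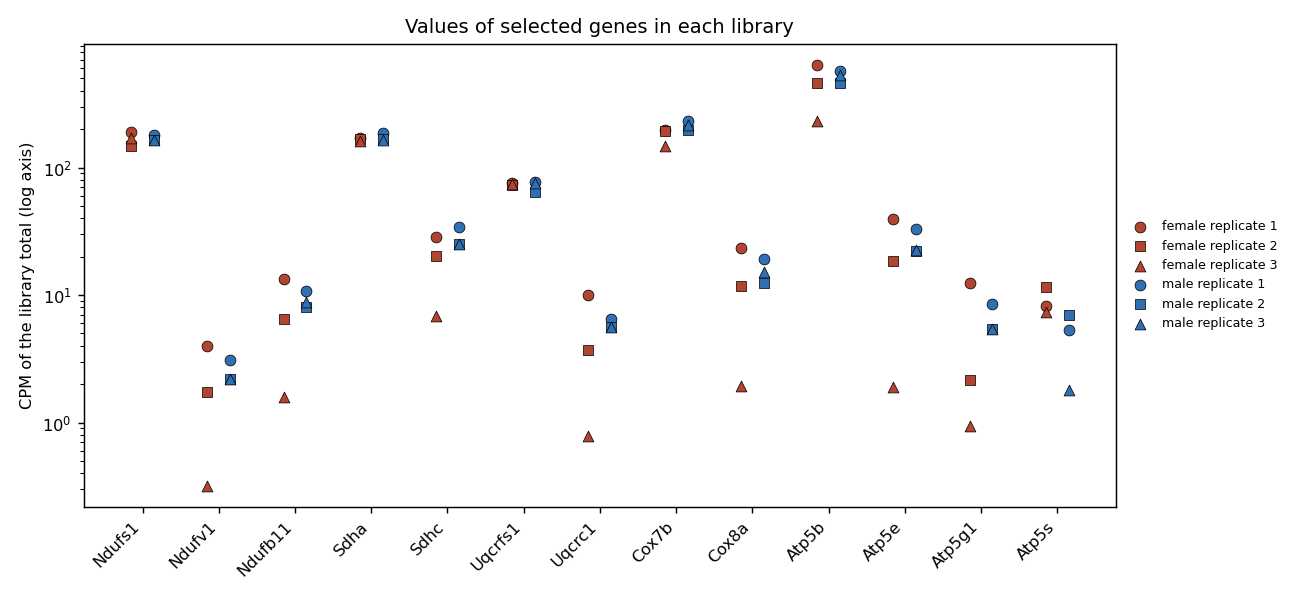
CPM of selected genes in each of the 6 libraries on a log axis, with females in red and males in blue and a symbol for each replicate number. Female replicate 3 (red triangle) is level with the others for Ndufs1, Sdha, Uqcrfs1 and Atp5s and lies far below them for Ndufv1, Ndufb11, Uqcrc1, Cox8a and Atp5e.

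Level, GC content and the distance of female replicate 3 went together across the genes. GC content was taken from the transcript with the longest coding sequence. Split into 3 classes of equal size by it, the 24 genes from 39.0 to 49.0% GC had a median of 96.9 CPM, the 24 from 49.1 to 53.8% a median of 24.3 CPM, and the 24 from 53.9 to 61.1% a median of 5.59 CPM. Over 100 CPM there were 12, 5 and 0 genes in the 3 classes, and under 10 CPM there were 2, 7 and 19. Female replicate 3 stood at a median of 0.721, 0.398 and 0.207 of the other libraries in these classes, and female replicate 1 at 1.15, 1.41 and 1.83. The median log2 fold changes between the sexes were -0.06, -0.17 and -0.29, and -0.03, 0.02 and 0.12 without female replicate 3, so the order of the classes turned around.

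Across the 72 genes, which share the libraries and are not independent replicates, Spearman's rho between GC content and mean CPM per kb was -0.64, and between GC content and the ratio of female replicate 3 to the others -0.65. With female replicate 1 in its place the rho was 0.57. Within complexes I, III, IV and V the rho of GC content with level was -0.68, -0.89, -0.82 and -0.47 (n = 33, 7, 11 and 17), and in complex II it was 0.00 over 4 genes. Over 10783 tested genes with a coding transcript the rho of GC content with level, with the ratio of female replicate 3 and with that of female replicate 1 was -0.44, -0.59 and 0.49, so the pattern over all complexes was not confined to these genes. Transcript length had a weaker relation to the ratio, with a rho of 0.21 (0.24 over all). The contrast within complexes was not complete: Ndufa9 (48.0% GC), Uqcrh (49.9%) and Atp5j2 (50.1%) were low in female replicate 3, at 0.0888, 0.164 and 0.0861, without a high GC content, and Atp5s (39.0% GC) had only 4.32 CPM per kb. Ndufa9 and Uqcrh are named after their values were seen. Whether base composition or another property of the transcripts sets these levels was not tested. They are levels as counted in the libraries, and whether they match those in the cells was not tested either.

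**Figure D5:**
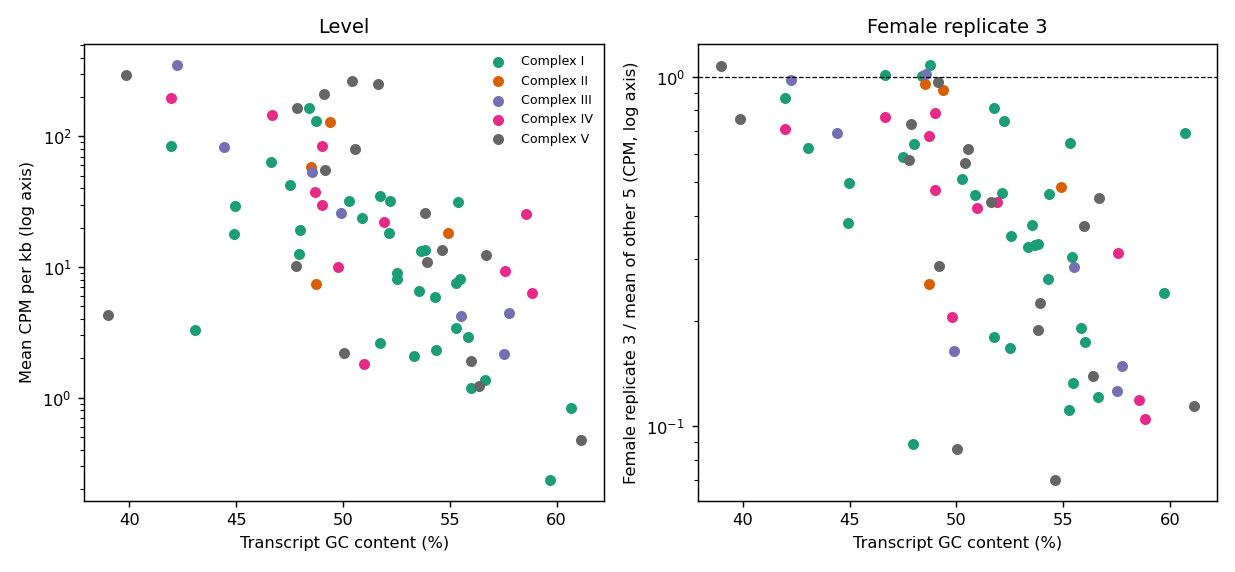
GC content of the transcript against the mean level in CPM per kb (left, log axis) and against the CPM of female replicate 3 divided by the mean of the other 5 libraries (right, log axis, dashed line at equality), for the 72 tested genes coloured by complex. Both fall with GC content (Spearman's rho -0.64 and -0.65).

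The other genes of the pathway, listed by function, gave 0 calls in edgeR, where 0.0575% of all tested genes were called. An unadjusted p under 0.05 was reached by 1 of 20 tested complex IV assembly factors and 1 of 12 tested biogenesis factors. The share over all tested genes was 2.89%, and 1 gene in lists this short is not read as a result. Of the complex I assembly factors 14 were tested, 10 of them negative, with a median log2 fold change of -0.12. Of those of complex IV 20 were tested, 8 negative, with a median of 0.05, of complex III 6 (4 negative, -0.22), of complex V 3 (0 negative, 0.13) and of complex II 2 (1 negative, -0.09). The 2 complex IV factors with the smallest p were Coa6, a copper-handling factor of complex IV, with 12.9, 14.7 and 21.9 CPM in females and 11.4, 8.10 and 11.8 in males (fitted log2 change 0.85 ± 0.34, edgeR adjusted p = 0.999), and Cox15, which makes haem A, with 37.8, 31.05 and 24.1 in females and 40.3, 43.9 and 44.3 in males (-0.35 ± 0.15, adjusted p = 0.999). Ndufab1, the acyl carrier subunit of complex I that the name pattern misses, had 163, 201 and 207 CPM in females and 180, 124 and 158 in males. Atpif1, the inhibitor of the ATP synthase, had 12.9, 7.81 and 4.41 CPM in females and 15.5, 11.9 and 14.8 in males. All females were above all males in Coa6, and all below in Cox15, where female replicate 3 was again the lowest. In the complex I list the smallest p belonged to Tmem186 (0.45 ± 0.23) and Ndufaf4 (0.31 ± 0.22), and in the complex III list to Uqcc1 (-0.52 ± 0.29) and Lyrm7 (-0.31 ± 0.20), all with an edgeR adjusted p of 0.999.

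Citric acid cycle enzymes, which supply NADH and succinate, leaned the same way: 10 of 12 were negative with a median of -0.15, and 3 of 12 with a median of 0.09 without female replicate 3. Among the factors that drive transcription of mitochondrial genes 6 of 12 were negative, with a median of 0.04. Gabpa, the ETS-family activator of many subunit genes, had 298, 241 and 307 CPM in females and 222, 205 and 229 in males, all females above all males (log2 fold change 0.52 ± 0.19, edgeR adjusted p = 0.999). The smallest p of the cycle enzymes belonged to Idh3b (-0.34 ± 0.18) and Dld (0.32 ± 0.20), and Tfb2m, a factor of mitochondrial transcription, had 0.32 ± 0.18, all with an edgeR adjusted p of 0.999. The 13 subunits encoded in the mitochondrion summed to 108574 CPM in female replicate 3 and to 82082 to 96534 CPM in the other 5, so the library with the lowest nuclear sum had the highest mitochondrial one. Of 12 tested mitochondrial genes 11 were positive with a median of 0.25, and 5 were negative with a median of 0.03 without that library. The genes mt-Nd3 (0.96 ± 0.45) and mt-Nd5 (0.49 ± 0.28), both of complex I, had the smallest p (edgeR adjusted p = 0.999).

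The letters GCGCATGCG, the core of the site of the factor NRF1, occurred on either strand in the window of 250 bases before to 50 bases after the start of 8 of the 69 genes found in the RefSeq promoter table of GRCm38.p6 (11.6%), against 1.95% of all 27025 genes there. The ETS core CCGGAAG occurred in 16 of 69 (23.2%), against 9.93%. The members were limited to protein-coding genes, while the 27025 were not filtered by gene type or by expression in these cells. The 2 sets are therefore unlike in more than their part in oxidative phosphorylation. These are matches of letters and not measured sites.

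Markers of the labelled cell type were present in all libraries, but they spanned the same wide range of levels. The B cell genes Ms4a1 and Pax5 had 1424 to 1658 and 497 to 591 CPM, while Cd79a, a chain of the B cell receptor, had 29.4, 13.3 and 4.61 CPM in females and 22.8, 12.9 and 18.8 in males. The list of 7 summed to 2174 to 2349 CPM in females and 2171 to 2427 in males. The monocyte and macrophage list, of which 7 of 8 genes were in the table and 0 of these at 0 in all libraries, summed to 3.65 to 6.65 CPM in females and 0.629 to 0.869 in males. The T cell list summed to 3.43 to 5.16 CPM in females and 1.21 to 3.23 in males, with 0 of 6 genes at 0. The NK cell list summed to 2.14 to 7.49 and 1.67 to 3.92 CPM, with 2 genes at 0. The erythroid list summed to 0.718 to 2.34 and 0.0178 to 0.422 CPM, with 1 gene at 0, and the neutrophil list to 0.104 to 0.454 and 0.0636 to 0.218 CPM, with 2 at 0. Most of the macrophage sum was Lyz2 (2.64 CPM in females and 0.321 in males) and Spic (1.48 and 0.350), while the defining Csf1r, C1qa and Cd14 averaged under 0.1 CPM in both sexes. Plasmablast genes summed to 269 to 455 CPM in females and 247 to 293 in males, with 1 of 6 at 0. Within this list 3 of 5 tested genes had an unadjusted p under 0.05 in edgeR, against 2.89% of all tested genes. Igj, the joining chain of secreted antibody, had 37.7, 48.4 and 48.2 CPM in females and 17.1, 17.04 and 18.3 in males (1.51 ± 0.22, edgeR adjusted p = 0.169). Prdm1, a regulator of plasma cell formation, had 22.1, 61.5 and 22.9 CPM in females and 11.7, 12.8 and 12.9 in males (1.63 ± 0.39, adjusted p = 0.999). In both all females lay above all males, and Irf4, another such regulator, had 0.58 ± 0.22 with overlapping CPM. The other tested genes of the list, Xbp1 (-0.0003 ± 0.16) and Sdc1 (0.003 ± 0.37), did not differ, so the rise was not shared by the whole list. The part of these cells in the levels of the oxidative phosphorylation genes was not tested.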

How the data were processed

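RNA-seq libraries of 6 mice were used as deposited: the authors' table holds estimated counts per gene symbol, made with kallisto and DESeq2 on GRCm38.p6 per the submitters' processing notes. The sources used here do not give their settings. The estimated counts were rounded for the count tests, and CPM are counts scaled to the column total. Of the symbols, 96.5% matched GENCODE M21, which gave lengths, GC content and positions. Sexes were compared with edgeR 4.0.16 (quasi-likelihood, TMM factors, filterByExpr, no covariate) in R 4.3.3, with Benjamini-Hochberg adjustment over 12172 genes. DESeq2 1.42.0 and limma-voom (limma 3.58.1) were alternatives, as were other scalings, filters, a replicate block, a length and GC trend and each library left out. The edgeR script was tested on simulated data. Mice were separate animals, so the spread is between mice. Depth was 24089561 to 35659883 counts, and the floor of 3 counts covers counting error only. Genes were named by rule: core subunits, the 2 smallest p, the highest and lowest level and genes without overlap in each complex, paralogues, and the extremes of the library farthest from the rest. A gene that this rule names is not reported here. The members and lists were chosen with earlier results of these data known. Coding 31-base words shared with another gene marked uncertain counts. Promoters and synonyms came from RefSeq.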

Additional observations from a re-analysis of the deposited data

How the results depend on the processing

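The count of 0 genes called held under every alternative run, with each library left out and with the replicate block. The number of genes with a negative log2 fold change ran from 32 to 58 and their median from -0.50 to 0.032 with each library left out, the lowest count and the only positive median being without female replicate 3. With library totals only, 63 genes were negative and the median was -0.26. With each library left out, the median of complex II ran from -0.18 to 0.044, of complex III from -0.93 to 0.14, of complex IV from -0.44 to 0.16 and of complex V from -0.41 to 0.059. Without a low-count filter the median of complex IV was 0.016, and after removal of a trend with length and GC the medians of complexes II and V were 0.13 and 0.010. The log2 ratio of summed CPM with TMM factors was 0.046 for complex II and 0.090 for complex III, against -0.09 and -0.04 on plain CPM. On plain CPM the ratio of complex III ran from -0.16 to 0.064 with each library left out. The causes were not tested. The span of complex I was 153-fold with the transcript of the longest coding sequence, an alternative chosen after seeing the data, and that of complex III 73.7-fold with the median transcript length. Of 39 named genes, 27 kept their sign without female replicate 3 and 31 with library totals only, and 0 passed the threshold in any alternative. Deviations of same-numbered libraries correlated at 0.22, 0.04 and 0.07, and those of differently numbered ones at -0.21 to 0.12. These values cannot tell whether libraries with the same number share a batch or a pairing. With the replicate block 57 genes were negative with a median of -0.20. Genes under a few CPM rest on few counts.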
